A study of Mus musculus with 2 samples.

Results

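The receptors Notch1, Notch2 and Notch3, the ligand Jag1 and the target genes Hes1, Hey1 and Heyl were followed across the cell populations of mouse knee joint cartilage. These 7 genes were taken by symbol from the 32285 genes of the deposited matrices, and all 7 were found. The cells came from wild-type mice after a sham operation or after destabilisation of the medial meniscus (DMM), surgery that leads to osteoarthritis. Each group was 1 library pooled from 3 mice, sorted as live cells without the surface proteins CD45, Ter119 and CD31. Strain, age, sex and the time after surgery are not given in the sources used here. The labels call the cells superficial cells, but clustering also found deeper chondrocyte-like, synovial, bone, marrow and vessel wall populations. Erythroid-like and neutrophil-like cells were present despite the sort.

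Notch receptors sit on the cell surface and are engaged by Jagged or Delta ligands on a neighbouring cell. Binding lets ADAM proteases and then gamma-secretase cut the receptor. The freed intracellular part joins the DNA-binding protein Rbpj and a Mastermind-like coactivator and switches on genes such as Hes1, Hey1 and Heyl, which encode repressors of the HES and HEY families. Notch3 and Jag1 are known from the smooth muscle cells and pericytes of vessel walls, and Notch1 from the surface layer of joint cartilage.

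Filters left 9474 cells of the sham library and 9503 of the DMM library, whose median depths were 8042.5 and 7849 UMIs (unique transcript tags), and 24 barcodes occurred in both libraries. Clustering, run without the Notch pathway genes, gave 23 clusters. Levels are in CPM, the UMIs of a gene scaled to a fixed total over the population. Because each group was a single library, sham and DMM could not be tested against each other. Bracketed 95% intervals cover counting error only, and differences between mice, preparations or libraries cannot be told apart from an effect of surgery. A gene was counted as higher or lower where the fold was at least 1.5, the interval left out 1 and at least 50 UMIs were counted over both sides. Perivascular-like cells comprised 382 sham and 320 DMM cells and marrow stromal-like cells 283 and 158, among 7567 and 8355 connective tissue cells.

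Of the receptors Notch1 to Notch3, Notch3 had the largest fold in perivascular-like cells over other connective tissue. In perivascular-like cells it reached 889.6 CPM [849, 932] in sham and 881 CPM [835, 930] in DMM. In all other connective tissue cells it reached 8.62 and 6.38 CPM, so the perivascular-like level was 103-fold [94.3, 113] and 138-fold [124, 154] higher. Both libraries thus gave levels far apart, with no overlap of intervals. Notch3 UMIs were found in 94.8% [92.0, 96.8] of perivascular-like cells in sham and 91.3% [87.6, 94.1] in DMM. After thinning every cell to 2000 UMIs the shares were 80.7% and 73.8%, against 0.135% and 0.115% of erythroid-like cells. This red cell lineage was taken as a rough guide to free RNA, which was not measured itself. The medians before thinning were 5134.5 and 4640.5 UMIs in perivascular-like cells and 7678 and 8845 in erythroid-like cells.

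Marrow stromal-like cells, which support blood formation and were marked by Lepr and Cxcl12, came next in the order for Notch3, with 173 CPM [155, 192] in sham and 205.5 CPM [179, 235] in DMM. Connective tissue outside these 2 classes held 3.95 and 3.57 CPM, which made the marrow stromal-like level 43.8-fold [37.3, 51.4] and 57.6-fold [47.8, 69.3] higher. All 10 perivascular markers had UMIs in marrow stromal-like cells, with a summed level of 138 CPM in sham and 478 CPM in DMM. Connective tissue outside the perivascular-like class had sums of 281 and 270.5 CPM. Of the 10 markers, 5 in sham and 9 in DMM were higher in marrow stromal-like cells than there. The sum was 34031 and 34118 CPM in the perivascular-like cluster led by Acta2 and 12816 and 14717 CPM in the one led by Rgs5. In marrow stromal-like cells the smooth muscle gene Acta2 went from 8.90 CPM in sham to 158 CPM in DMM, Tagln from 9.39 to 101 CPM and the pericyte gene Rgs5 from 22.7 to 81.4 CPM. The share of cells with UMIs was 6.01% and 6.33% for Acta2, 6.01% and 4.43% for Tagln and 5.65% and 10.8% for Rgs5. Mcam (3.95 and 3.88 CPM) and Abcc9 were slightly lower in DMM and the other markers higher. Abcc9, a potassium channel subunit of pericytes, was at 51.4 and 45.6 CPM, above the 30.5 and 27.3 CPM of the Acta2 cluster. The part of these markers in the Notch3 level of marrow stromal-like cells was not tested. Below them the clusters led by Mmp13, Tnn and Sfrp2 (16.0 and 11.6 CPM) and by Ccl7, C3 and Igf1 (14.6 and 7.74 CPM) had Notch3 levels whose intervals met in both libraries. Chondrocyte-like cells were lowest among the 8 connective tissue classes, with 0.688 and 1.07 CPM, near the 0.635 and 0.436 CPM of erythroid-like cells.

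Notch2 was the broadly found receptor, with perivascular-like levels near those of all other connective tissue pooled. That pool held classes with more and classes with less Notch2. Its perivascular-like levels were 92.3 CPM in sham and 74.2 CPM in DMM, against 89.8 and 80.3 CPM in other connective tissue, a ratio of 1.03 [0.884, 1.19] and 0.924 [0.761, 1.11]. Marrow stromal-like cells were highest among the classes at 201 and 171 CPM, followed by osteoblast-like cells at 171 and 141 CPM, and the intervals of these neighbours met. Superficial zone chondrocyte-like cells were lowest at 46.2 and 38.0 CPM. Notch2 was also found in erythroid-like cells, at 30.4 and 23.0 CPM, where the other 6 genes stayed under 5 CPM. In sham its highest cluster was the neutrophil-like one, at 376 CPM [297, 469].

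Notch1 separated the surface of cartilage from its depth. Superficial zone chondrocyte-like cells, marked by Prg4 and Erg, held 28.8 CPM in sham and 14.9 CPM in DMM. Chondrocyte-like cells, marked by Col2a1 and Acan, held 0.619 and 0.681 CPM from 9 and 7 UMIs, so the superficial level was 46.5-fold [24.3, 102] and 21.8-fold [10.4, 54.9] higher. Of all genes measured in this comparison, 25.8% in sham and 26.7% in DMM were higher in superficial cells by the same rule. The superficial cluster led by Casr, Erg and Chst3 held more Notch1 than the one led by Serpina1e, Inhba and Col10a1. Its levels were 40.2 and 25.0 CPM against 15.5 and 7.77 CPM, 2.59-fold [2.08, 3.25] and 3.22-fold [2.42, 4.32] higher. By the same rule 11.1% and 8.45% of all genes were higher in the Casr cluster. Perivascular-like cells, at 71.5 and 55.9 CPM, and marrow stromal-like cells, at 58.8 and 69.8 CPM, were the 2 highest connective tissue classes, with intervals that met in both libraries. The perivascular-like level of Notch1 was 5.11-fold [4.26, 6.09] higher than in other connective tissue in sham and 5.435-fold [4.30, 6.80] in DMM. Within cartilage, Hes1 was also higher in superficial than in chondrocyte-like cells (2.39-fold [2.25, 2.55] and 2.24-fold [2.08, 2.40]). Heyl was lower in superficial than in chondrocyte-like cells of sham, at 0.990 against 3.17 CPM from 15 and 46 UMIs, a ratio of 0.313 [0.162, 0.571], where 25% of all genes were lower. In DMM its levels were 0.644 and 3.01 CPM from 10 and 31 UMIs, too few to compare.

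The mix of receptors differed between classes. Of all UMIs of Notch1 to Notch4, Notch3 gave 84.4% [82.8, 85.9] in sham and 87.0% [85.3, 88.7] in DMM in perivascular-like cells, and 39.9% and 45.9% in marrow stromal-like cells. Notch2 gave 96.6% and 95.5% in chondrocyte-like cells. Notch1 gave 36.8% [34.0, 39.6] and 26.7% [23.8, 29.8] in superficial zone chondrocyte-like cells. The tags mark 3' ends and are not divided by gene length, and how well each receptor was captured is not known, so the shares compare classes rather than amounts of protein.

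**Figure D1:**
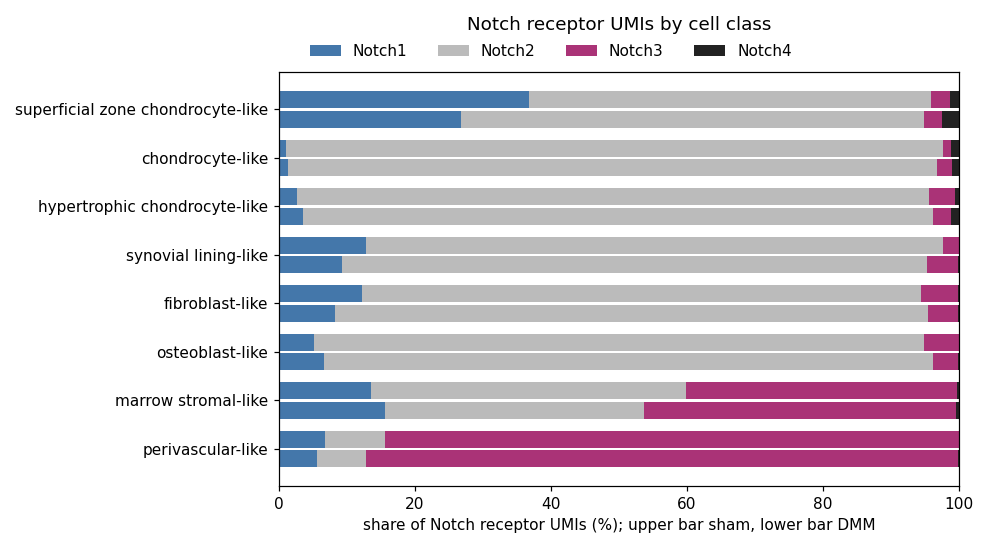
Share of Notch receptor UMIs (horizontal axis, percent) given by each of the 4 receptors in 8 connective tissue classes, sham above DMM. Notch3 fills 84.4% and 87.0% of the perivascular-like bars and Notch2 96.6% and 95.5% of the chondrocyte-like bars.

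The ligand Jag1 was highest in the same vessel wall cells, at 173 CPM [155, 192] in sham and 166 CPM [146, 188] in DMM. Other connective tissue held 23.6 and 22.2 CPM, and the perivascular-like level was 7.32-fold [6.51, 8.22] and 7.48-fold [6.53, 8.54] higher. Marrow stromal-like cells followed at 87.0 and 73.7 CPM. Among clusters the unnamed one led by Mmp13, Tnn and Sfrp2 (79.9 and 60.1 CPM) and the fibroblast-like one led by Pi16 and Cd34 (71.7 and 60.6 CPM) came next, each with an interval that met its neighbour's. Levels then dropped to 9.17 and 7.59 CPM in superficial zone chondrocyte-like cells. No other ligand on the list came near this level in perivascular-like cells, where Dlk1, a non-canonical ligand, was at 1.48 and 10.4 CPM and Dll1 at 0.987 and 0.650 CPM. The highest Dll4, the Delta ligand of endothelial cells, was 27.6 CPM from 11 UMIs in sham, in a shallow unnamed cluster with a summed level of 1008 CPM of endothelial markers.

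The promoters of this receptor and ligand are shown because both genes were highest in the perivascular-like class. RefSeq (build GRCm38.p6) gave windows of 300 bases, from 250 before to 50 after the gene start, for Notch1, Notch2, Notch3 and Jag1. The windows are chr17:32166841-32167140 for Notch3 and chr2:137116471-137116770 for Jag1, both on the minus strand, and capitals mark GGGCGG on either strand, the GC box bound by SP-family factors.
Notch3: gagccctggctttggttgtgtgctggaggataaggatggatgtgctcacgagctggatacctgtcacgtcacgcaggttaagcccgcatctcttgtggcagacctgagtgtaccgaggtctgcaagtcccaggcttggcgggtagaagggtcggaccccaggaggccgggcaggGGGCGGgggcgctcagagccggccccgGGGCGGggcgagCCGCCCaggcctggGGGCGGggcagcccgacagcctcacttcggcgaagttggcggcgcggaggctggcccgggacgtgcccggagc
Jag1: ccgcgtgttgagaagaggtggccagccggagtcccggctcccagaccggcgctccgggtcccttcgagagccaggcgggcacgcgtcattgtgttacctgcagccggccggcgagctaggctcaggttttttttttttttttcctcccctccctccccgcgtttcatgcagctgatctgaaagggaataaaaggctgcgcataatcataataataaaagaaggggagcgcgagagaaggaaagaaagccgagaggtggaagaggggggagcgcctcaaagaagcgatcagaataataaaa
The Notch3 window held 4 matches and the Jag1 window 0, while Notch1 held 5 and Notch2 7, and 35.7% of 32851 promoter windows of this length held at least 1. TGGGAA, the core of the Rbpj site, and the CArG box of serum response factor had 0 matches on either strand in these 4 windows and occurred in 25.6% and 1.63% of all windows. The GC box was searched after those 2 motifs gave no match. Per GENCODE vM21 (GRCm38) the whole genes lie on chromosome 17 from 32120820 to 32166852 (Notch3) and on chromosome 2 from 137081456 to 137116644 (Jag1). Notch1 lies on chromosome 2 from 26457903 to 26516663 and Notch2 on chromosome 3 from 98013527 to 98150361. The Notch1 window (chr2:26503773-26504072, minus strand) lies at a RefSeq start inside the GENCODE range of Notch1, not at its end at 26516663. Hes1 lies on chromosome 16 from 30064384 to 30067796, Hey1 on chromosome 3 from 8663359 to 8667256 and Heyl on chromosome 4 from 123233556 to 123249875.

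Of the 3 targets, Heyl had the largest perivascular-like fold and Hes1 the smallest in both libraries. Heyl stood at 71.1 CPM [59.9, 83.6] in sham and 50.7 CPM [40.1, 63.3] in DMM in perivascular-like cells. Other connective tissue held 2.75 and 1.57 CPM, which put the perivascular-like level 25.8-fold [20.7, 32.1] and 32.4-fold [24.0, 43.6] higher. Marrow stromal-like cells followed at 39.5 and 35.9 CPM, and the cluster led by Pcp4, Rgs6 and Apoe held 9.35 and 8.83 CPM, apart from both its neighbours in each library. Heyl had 0 UMIs in synovial lining-like cells of sham and in osteoblast-like cells of DMM, which allows up to 0.790 and 0.912 CPM (3 UMIs).

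Hey1 was low throughout and among the classes was highest in marrow stromal-like cells, at 30.2 CPM [23.1, 38.7] in sham and 25.2 CPM [16.5, 36.9] in DMM. The Rgs5 cluster of the perivascular-like class, at 31.2 CPM [14.95, 57.4] in sham and 12.1 CPM [3.30, 31.0] in DMM, had intervals that met these. Perivascular-like cells held 18.8 and 14.3 CPM, 8.04-fold [5.50, 11.5] and 5.67-fold [3.47, 8.85] above other connective tissue, from 38 and 22 UMIs. Hes1, which many pathways besides Notch control, was found in every connective tissue class. It reached 469 CPM [439, 500] in sham and 578 CPM [540, 617] in DMM in perivascular-like cells and 413 and 426 CPM in marrow stromal-like cells. Chondrocyte-like cells were lowest at 94.7 and 98.5 CPM, so that the fold of perivascular-like cells over other connective tissue was 2.41 [2.25, 2.57] and 2.91 [2.71, 3.11]. Immediate early genes that enzymatic digestion is known to raise were also higher there. The summed level of 12 such genes was 14972 and 15707 CPM in perivascular-like cells and 7727 and 7664 CPM in other connective tissue, and their part in the Hes1 level was not tested.

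**Figure D2:**
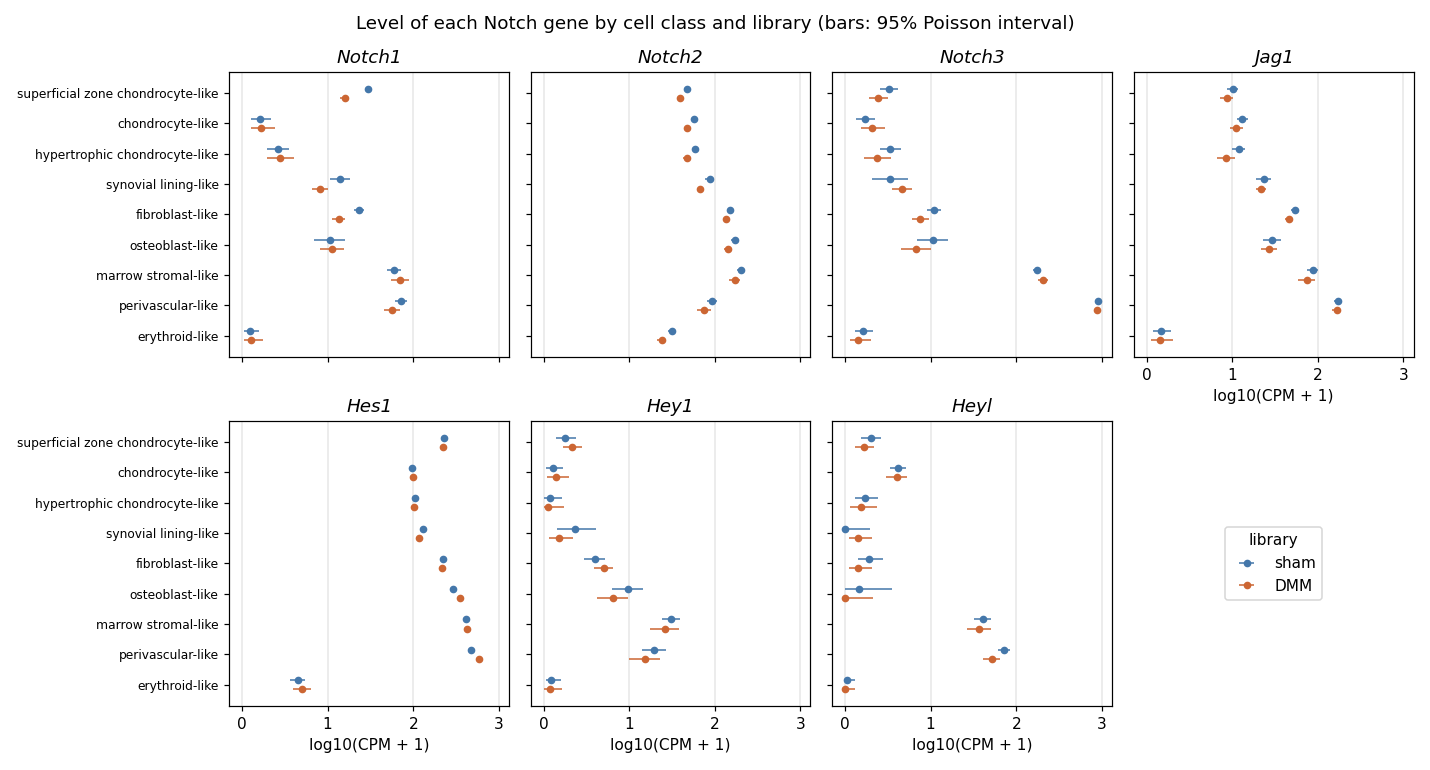
Level of each of the 7 genes as log10(CPM + 1) on the horizontal axis by cell class, with sham and DMM as separate points and 95% Poisson intervals as bars. Notch3, at 889.6 and 881 CPM in perivascular-like cells and 173 and 205.5 CPM in marrow stromal-like cells, stands at 9.90 CPM or less in the other connective tissue classes, while Notch2 and Hes1 are found in all connective tissue classes.

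Counted over the 7 genes, 6 were higher in perivascular-like cells than in other connective tissue in both libraries, all but Notch2, where 19% of all genes in sham and 18.3% in DMM were higher by the same rule. In marrow stromal-like cells 7 of 7 were higher than in connective tissue outside both classes, beside 24.7% and 23.2% of all genes. Notch3, Jag1, Hes1 and Heyl, 4 of the 7, had their highest class level in perivascular-like cells in both libraries. Set against marrow stromal-like cells directly, perivascular-like cells held more Notch3 (5.14-fold [4.58, 5.78] and 4.29-fold [3.71, 4.98]) and Jag1 (1.99-fold [1.65, 2.39] and 2.25-fold [1.74, 2.95]). Heyl was 1.80-fold [1.36, 2.39] higher in sham and 1.41-fold [0.945, 2.15] in DMM, where it missed the fold. Of all genes 21.8% and 20.3% were higher in this comparison. The Hes1 ratios were 1.14 [1.03, 1.25] and 1.36 [1.21, 1.53], under the fold of 1.5, and the Notch1 ratios 1.22 [0.948, 1.56] and 0.801 [0.579, 1.11]. Perivascular-like cells held less Notch2, with ratios of 0.459 [0.384, 0.547] and 0.435 [0.340, 0.553], where 29.8% and 28% of all genes were lower. Hey1 was lower in sham, with a ratio of 0.622 [0.403, 0.948], and in DMM its 48 UMIs were too few to compare.

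The perivascular-like class had a cluster of smooth muscle character, led by Acta2, Tagln and Myh11 (316 sham and 251 DMM cells), and one of pericyte character, led by Rgs5, Il6 and Abcc9 (66 and 69 cells). Notch3 was at 892 and 839 CPM in the Acta2 cluster and at 876 and 1036 CPM in the Rgs5 cluster, with ratios of 1.02 [0.896, 1.16] in sham and 0.810 [0.716, 0.919] in DMM, both within the fold of 1.5. Jag1 was 1.75-fold [1.22, 2.57] higher in the Acta2 cluster in sham, at 185 against 106 CPM, and 1.28-fold [0.921, 1.80] in DMM. Hes1 was 1.38-fold [1.13, 1.69] and 1.35-fold [1.13, 1.62] higher there, under the fold of 1.5. In sham 2 of the 7 genes, Notch1 and Jag1, were higher in the Acta2 cluster, beside 16% of all genes. In DMM Notch2 was, beside 15.5%.

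Other Notch targets separated these clusters. Nrarp, a target that dampens Notch signalling in a feedback loop, was at 209 and 218 CPM in the Acta2 cluster and 28.1 and 30.3 CPM in the Rgs5 cluster, 7.43-fold and 7.19-fold higher. Hey2, a further HEY repressor, was at 82.6 and 63.8 CPM against 15.6 and 12.1 CPM, 5.30-fold and 5.27-fold higher. The Rgs5 cluster held 320670 UMIs over all genes in sham and 330209 in DMM, so its Nrarp and Hey2 levels rest on few UMIs. Outside the perivascular-like class both were low, with Nrarp at 0.436 and 0.108 CPM and Hey2 at 0.873 and 0.755 CPM in the rest of the connective tissue. Rbpj was higher in the Rgs5 cluster, at 243 and 124 CPM against 90.9 and 68.8 CPM in the Acta2 cluster, and its level in the Rgs5 cluster itself differed between the libraries, with a DMM to sham ratio of 0.511 [0.341, 0.754]. Fbxw7, which marks the active receptor for breakdown, was at 99.8 and 72.7 CPM in the Rgs5 cluster against 42.2 and 29.0 CPM. Of the 47 other pathway genes, 22 could be measured in this comparison in sham and 21 in DMM. In the Acta2 cluster 4 were higher and 9 lower in sham, and 2 and 7 in DMM. Of all genes 18.5% and 19.2% were lower by the same rule.

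**Figure D3:**
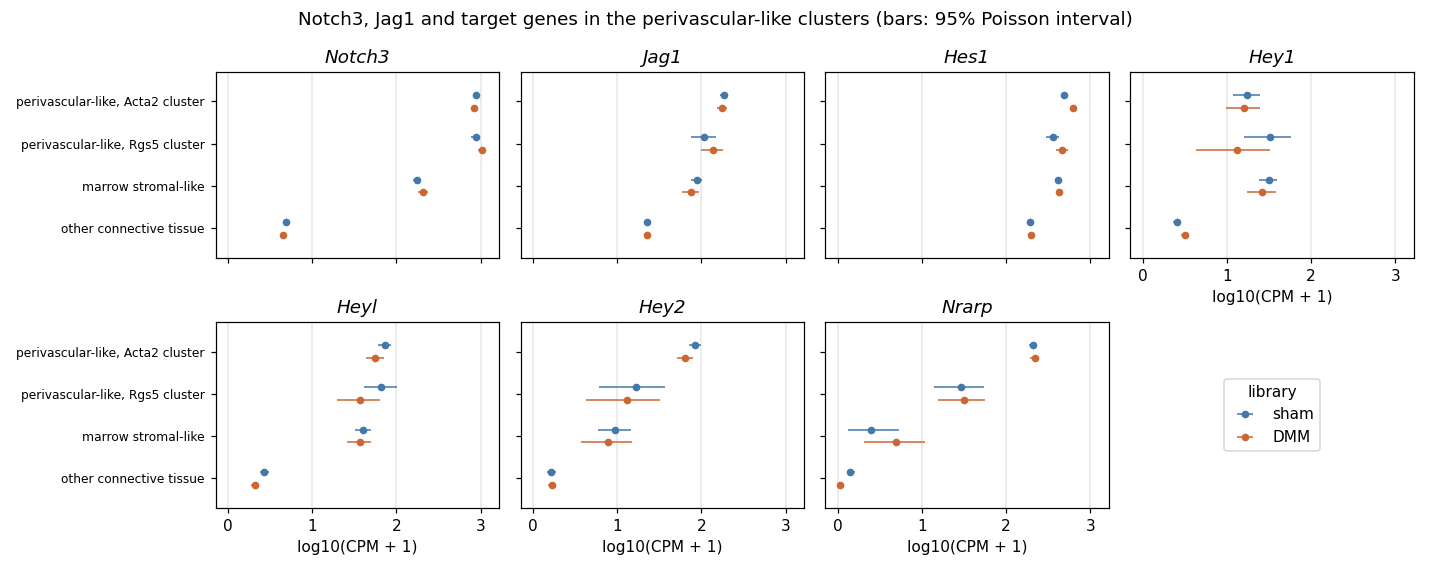
Level of Notch3, Jag1 and 5 target genes as log10(CPM + 1) on the horizontal axis in the 2 perivascular-like clusters, marrow stromal-like cells and other connective tissue, with 95% Poisson intervals as bars. Nrarp falls from 209 and 218 CPM in the Acta2 cluster to 28.1 and 30.3 CPM in the Rgs5 cluster while Notch3 stays between 839 and 1036 CPM in both.

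In marrow stromal-like cells Hey2, Dtx4, Lfng and Maml3 were higher than in connective tissue outside both classes. Hey2 was at 8.40 and 6.79 CPM there against 0.659 and 0.670 CPM. Lfng, a fringe glycosyltransferase that alters how receptors respond to ligands, was at 34.6 and 50.4 CPM there against 3.81 and 3.48 CPM in connective tissue outside both classes, and had 0 UMIs in perivascular-like cells of sham, which allows up to 1.48 CPM, and 7 in DMM. Dtx4, a Deltex ubiquitin ligase, was at 27.7 and 29.1 CPM against 2.43 and 3.50 CPM. Maml3, a Mastermind-like coactivator, was at 257 and 224 CPM against 49.0 and 43.4 CPM, and in perivascular-like cells at 149.5 and 127 CPM. Its relative Maml2 was lower in both classes, at 428 and 286 CPM in marrow stromal-like and 219 and 159 CPM in perivascular-like cells, than in connective tissue outside them, at 1555 and 743 CPM. Within that tissue it ranged widely, from 100 and 57.9 CPM in synovial lining-like cells through 523 and 341 CPM in superficial zone chondrocyte-like cells to 3610 and 2402 CPM in chondrocyte-like cells. In marrow stromal-like cells 15 of 37 measured pathway genes were higher in sham and 13 of 36 in DMM, with 5 and 3 lower, beside 24.7% and 23.2% of all genes higher and 17.9% and 11.4% lower. In perivascular-like cells 5 of 38 and 7 of 37 were higher, with 5 and 3 lower, beside 19% and 18.3% of all genes higher and 23.7% and 19.4% lower.

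Within the perivascular-like class, single cells with and without Notch3 UMIs had shares with Jag1, Hes1 and Heyl whose intervals met, at a depth thinned to 2000 UMIs. Before thinning nearly all cells of the class had Notch3 UMIs, so most cells counted here as without it had lost it in the thinning. The split therefore cannot show whether these genes go together in single cells. In sham, Hes1 was found in 52.4% [46.5, 58.2] of 296 cells with Notch3 and 47.9% [35.9, 60.1] of 71 cells without. In DMM the shares were 50% [43.3, 56.7] of 228 and 55.6% [44.1, 66.6] of 81. Heyl was found in 11.2% and 16.9% of these cells in sham and 10.1% and 14.8% in DMM, and Jag1 in 27.0% and 21.1% and in 30.7% and 27.2%.

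Across 41 points, each a cluster in a library, the genes whose log level was most like that of Notch3 were Carmn, a smooth muscle long noncoding RNA (Pearson r = 0.927), Adamts4 (r = 0.916) and Gucy1a1, a subunit of the nitric oxide receptor of smooth muscle (r = 0.911), out of 11167 genes compared. Hey1 was also most like Carmn (r = 0.901), and Heyl was most like Lmod1, a smooth muscle actin-binding protein (r = 0.872). Notch3 itself gave r = 0.841 with Hey1, 0.831 with Heyl, 0.729 with Jag1 and 0.512 with Hes1. Notch1 was most like Prkcd (r = 0.901), Jag1 most like Tnfsf12 (r = 0.955), Hes1 most like Tsen34 (r = 0.964) and Notch2 most like Mbtd1 (r = 0.916). The points share their libraries and differ in depth, and genes are not independent, so these values describe the pattern and were not tested.

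Between the libraries, Notch1 was past the fold in more classes than the other 6 genes, and it was lower in DMM. In superficial zone chondrocyte-like cells it went from 28.8 CPM (436 UMIs) in sham to 14.9 CPM (231 UMIs) in DMM, a ratio of 0.517 [0.439, 0.607]. Both superficial clusters showed it, with ratios of 0.622 [0.512, 0.754] in the Casr cluster and 0.50 [0.366, 0.681] in the Serpina1e cluster, where 15.6% and 8.97% of all genes were lower. Thinned to 2000 UMIs, Notch1 was found in 6.18% [5.07, 7.45] of superficial cells in sham and 3.28% [2.48, 4.23] in DMM. It was the 1 of 5 measured genes of the set past the fold in this class, where 12.9% of all genes were lower, 3.14% were higher and the median log2 ratio over all genes was -0.15. Of the cells of this class, the Casr cluster gave 1005 in sham and 750 in DMM, and the Serpina1e cluster 673 and 974.

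Synovial lining-like cells held 12.9 CPM of Notch1 in sham and 7.17 CPM in DMM, a ratio of 0.555 [0.380, 0.817], beside 12.7% of all genes lower and 5.48% higher in that class. Fibroblast-like cells held 22.2 and 12.4 CPM, a ratio of 0.561 [0.444, 0.706], beside 9.48% of all genes lower and 6.9% higher. Signs of other cell types were also lower in DMM in these classes. Haemoglobin transcripts went from 3309 to 1219 CPM in superficial zone chondrocyte-like, from 4332 to 385 CPM in synovial lining-like and from 2212 to 1386 CPM in fibroblast-like cells. The summed endothelial markers went from 7.13 to 3.67 CPM, from 5.01 to 1.64 CPM and from 5.51 to 1.81 CPM in the same order, and their part in the Notch1 difference was not tested. In the remaining classes haemoglobin went from 3076 to 362 CPM in marrow stromal-like, 8830 to 2572 CPM in perivascular-like and 4219 to 1838 CPM in osteoblast-like cells. It went from 1327 to 449 CPM in hypertrophic chondrocyte-like cells and from 540 to 826 CPM in chondrocyte-like cells. Erythroid-like cells held 0.231 and 0.261 CPM of Notch1. The neutrophil-like cluster held 96.3 CPM of it in sham. In the shallow unnamed cluster with endothelial markers Notch1 was at 55.3 CPM in sham and 16.4 CPM in DMM. The part of RNA from any of these cells in the Notch1 differences was not tested. The synovial lining-like difference missed the fold of 1.5 or the UMI minimum when cells were thinned, when 200 UMIs were required and relative to genes of similar span. The fibroblast-like one missed it with a minimum of 1000 genes, with a limit of 5% mitochondrial UMIs and at a Leiden resolution of 1.5. In perivascular-like cells the Notch1 ratio was 0.782 [0.592, 1.03] and in marrow stromal-like cells 1.19 [0.873, 1.60]. Whether the ratio differs between classes was not tested.

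Notch3 in fibroblast-like cells went from 9.90 to 6.59 CPM, a ratio of 0.665 [0.476, 0.924], which was past the fold with the cells as clustered here but in none of the alternatives that changed the cells, clusters, scaling or thresholds. At a Leiden resolution of 1.5 its log2 ratio was 0.00. These were the 4 of 40 measured pairs of gene and class past the fold. Of all genes, 10.3% to 18.7% in each of the 8 classes were past it either way. In perivascular-like cells 0 of 7 were, where 8.88% of all genes were lower and 5.33% higher, and in marrow stromal-like cells 0 of 7, where 7.94% were lower and 8.97% higher. The remaining classes also had none past it: 0 of 4 genes in chondrocyte-like cells (8.73% of all genes lower, 1.53% higher), 0 of 3 in hypertrophic chondrocyte-like cells (10.9% and 1.85%) and 0 of 4 in osteoblast-like cells (11.8% and 6.98%). These counts hold for the processing as reported. With a limit of 5% mitochondrial UMIs, Notch1 and Heyl were past the fold in perivascular-like cells, both lower in DMM (log2 ratios -0.65 and -0.60). Pairs in osteoblast-like and marrow stromal-like cells that passed under alternatives are given at the end. Notch3 in perivascular-like cells had a ratio of 0.991 [0.923, 1.06], and Jag1 of 0.961 [0.814, 1.13]. Hes1 there was 1.23-fold [1.12, 1.35] higher in DMM and Heyl had a ratio of 0.714 [0.535, 0.947], both short of the fold of 1.5. Relative to genes of similar span the Hes1 log2 ratio was -0.03 in place of 0.30.

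**Figure D4:**
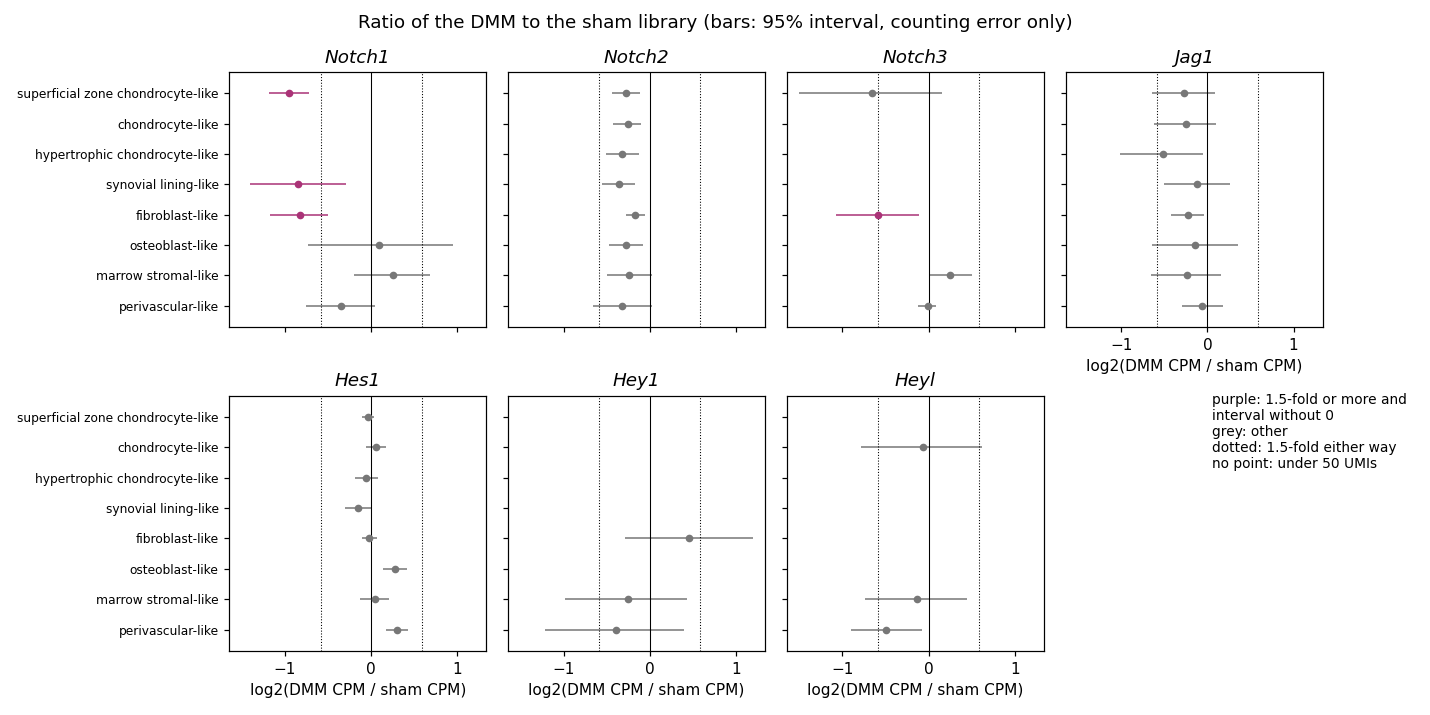
Log2 ratio of the DMM to the sham level (horizontal axis) for each gene in 8 connective tissue classes, with 95% intervals as bars and dotted lines at 1.5-fold. The purple points are Notch1 in 3 classes (ratios 0.517, 0.555 and 0.561) and Notch3 in fibroblast-like cells (0.665), and pairs with fewer than 50 UMIs have no point.

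Over all connective tissue cells together, Heyl fell from 4.59 to 2.56 CPM, a ratio of 0.559 [0.466, 0.668], while 14.3% of all genes were lower. Notch3 went from 32.3 to 24.2 CPM, a ratio of 0.748 [0.704, 0.795]. The 2 classes with the highest levels of both genes made up fewer of the cells in DMM (320 of 8355 perivascular-like, 158 marrow stromal-like) than in sham (382 of 7567 and 283). Within those classes the Heyl ratios were 0.714 [0.535, 0.947] and 0.907 [0.597, 1.36] and the Notch3 ratios 0.991 and 1.19 [0.997, 1.41]. The sort and dissection also set how many cells of a class were caught. The part of these class sizes in the pooled ratios was not tested.

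Among the 47 other pathway genes, the superficial zone chondrocyte-like class had the largest count past the fold. There 7 of 35 measured genes were lower in DMM and 1 was higher, with a median log2 ratio of -0.19 beside -0.15 for all genes, of which 12.9% were lower and 3.14% higher. Maml1, a Mastermind-like coactivator, fell from 22.0 to 12.6 CPM, a ratio of 0.571 [0.476, 0.683]. Rbpj fell from 180 to 115 CPM, a ratio of 0.637 [0.600, 0.677], and Mib1, a ubiquitin ligase that activates ligands, from 83.2 to 49.9 CPM, a ratio of 0.599 [0.547, 0.656]. Numb, an inhibitor of Notch, fell from 44.9 to 26.1 CPM, a ratio of 0.581 [0.513, 0.658]. Dll1 was higher in DMM, at 4.83 against 3.10 CPM. Rbpj, Mib1, Numb and Maml2 were also lower in synovial lining-like cells, 4 of 32 measured beside 12.7% of all genes, and Rbpj went from 364 to 217 CPM. In osteoblast-like cells 5 of 29 were lower and 2 higher, beside 11.8% and 6.98% of all genes. Dtx4 fell there from 20.3 to 8.21 CPM and Adam10, which makes the first cut after ligand binding, from 182 to 97.6 CPM. Perivascular-like cells had 1 of 28 higher, the protease Furin (41.0 to 63.7 CPM), and 1 lower, the corepressor Spen (86.3 to 50.1 CPM), beside 5.33% of all genes higher and 8.88% lower. Over the 8 classes 29 of 250 pairs of pathway gene and class were past the fold, where 10.3% to 18.7% of all genes in each class were past it either way, and 14 of 250 relative to genes of similar span.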

How the data were processed

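Single-cell RNA was measured in 2 libraries (sham and DMM, 1 each). The deposited counts are UMIs per gene and barcode, without normalisation, from Cell Ranger 7.1.0 per the file headers, while Cell Ranger 3.0.1 and mm10 stand in the submitters' processing notes. Totals were 106799078 UMIs over 11362 barcodes in sham and 97346999 over 11076 in DMM. A bulk table holds the 7 genes, but its 6 columns match no sample, so it was not used here.

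Cells needed 500 genes and no more than 10% mitochondrial UMIs, and Scrublet doublets (5.18% of sham and 3.90% of DMM cells) were removed. Counts scaled to 10000 per cell were logged, and 2000 variable genes without the Notch genes, 30 components, 15 neighbours and a Leiden resolution of 1.0 (seed 1) gave the clusters. A cluster took the suffix "-like" from the marker list with the highest mean log2 fold (pseudocount 10 CPM) if that was at least 0.75, 3 markers passed and no other list had more genes among its 10 leading genes. A further condition, that 1 of its own markers be among the leading genes or all of them pass, was added after the clusters were seen. It left unnamed the clusters led by Mmp13 and by Angptl7, which scored best for tendon or ligament. Connective tissue was every such class and each unnamed cluster with Serpinh1 in at least 50% of cells.

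UMIs were summed per population and library. CPM values carry exact Poisson intervals, shares Clopper-Pearson intervals and ratios exact conditional binomial intervals. A class was compared with at least 50 cells in each library. Ratio and interval code was tested on simulated data. No p-values were computed, since each group had 1 library. The 7 genes, the list of 47 pathway genes, the marker lists and the thresholds were chosen with earlier results of these data known. The rule for names took the 7 genes and, of the pathway list, at most 4 genes per class past the fold, by size, and at most 3 per role by perivascular-like level. Values are given for the classes the results turn on. Dll4, Dll1 and Maml2 between populations, and Rbpj and Fbxw7 in the perivascular-like clusters, were named after their values were seen. Likeness is Pearson r of log2(CPM + 1) over the clusters of each library. The adjustment for gene span, the naming alternative, the GC box search and the criterion for opposite ratios were chosen after the data were seen. Tools were Python 3.11.15, matplotlib 3.10.9, leidenalg 0.10.2, scanpy 1.11.5, igraph 0.11.9, scikit-learn 1.9.0, pandas 2.3.3, scipy 1.17.1 and numpy 2.4.6.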

Additional observations from a re-analysis of the deposited data

Results flagged for a closer look

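Notch3 and Hes1 had DMM to sham ratios whose 95% intervals lay on opposite sides of no change in different connective tissue clusters. The intervals cover counting error only, and the difference between clusters was not tested. For Notch3 the log2 ratio was 0.24 in the perivascular-like cluster led by Rgs5, Il6 and Abcc9 and -0.91 in the fibroblast-like cluster led by Ccl7, C3 and Igf1.

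For Hes1 the log2 ratio was 0.32 in the perivascular-like cluster led by Acta2, 0.28 in osteoblast-like cells and 0.18 in the Ccl7 cluster. It was -0.44 in the unnamed cluster led by Mmp13, Tnn and Sfrp2, -0.33 in the one led by Angptl7, Npy and Spp1, -0.28 in the one led by Pcp4, Rgs6 and Apoe, and -0.21 in the superficial cluster led by Casr. Each of these Hes1 ratios was short of 1.5-fold.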

How the results depend on the processing

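The Notch1 difference in superficial zone chondrocyte-like cells passed the fold of 1.5 under each alternative but the fold of 2, with log2 ratios from -0.96 to -0.63 over the alternatives that gave a ratio and -0.95 as reported. The count of 4 pairs of gene and class past the fold became 7 with a limit of 5% mitochondrial UMIs, 2 with cells thinned to 2000 UMIs, 2 with a minimum of 200 UMIs and 0 with a fold of 2. The other alternatives gave 3 to 5. The pairs themselves also changed. Notch3 in osteoblast-like cells had too few UMIs to compare as reported. It passed, lower in DMM, with a minimum of 1000 genes (log2 ratio -1.52) and at a Leiden resolution of 1.5 (-0.95). A limit of 5% mitochondrial UMIs (-0.59) and Notch genes kept for clustering (-0.60) gave the same. With a minimum of 1000 genes Notch1 (-0.81) and Jag1 (-0.68) passed there too. Relative to genes of similar span Hey1 did in marrow stromal-like cells (-0.71). The 29 pathway pairs became 3 with a fold of 2 and 14 relative to genes of similar span, and 20 to 33 otherwise. Notch3 in fibroblast-like cells had a log2 ratio of 0.00 at a Leiden resolution of 1.5, against -0.59 as reported, and the cause was not tested. The 4 genes highest in perivascular-like cells became 3 under 5 alternatives. Naming clusters without the added condition kept all 3 counts. Over 54 single ratios, 631 values under the alternatives stayed within the reported interval, 46 moved and 1 reversed. The minimum of 200 UMIs and the naming alternative could not move these ratios, and gave 28 and 54 of the values that stayed. Relative to genes of similar span 17 of 40 values moved, and with cells thinned 12 of 40. Perivascular-like Notch3 stayed between 6.34 and 7.12 (log2) above other connective tissue. The median log2 ratio of all genes was between -0.16 and -0.05 in the 8 classes, and scaling by the median ratio shifts each ratio by that amount. Genes under 50 UMIs over both libraries could not be compared. No paired analysis was possible because each group had 1 library.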
